A study of Caenorhabditis elegans with 2 samples.

Results

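Exonic HAM-2 peaks are places in the Caenorhabditis elegans genome where the chromatin immunoprecipitation (ChIP-seq) signal of HAM-2 reached its highest point inside an exon of a protein-coding gene, away from the gene's start. They were taken from the peak list that the submitters called on both replicates together, which holds 30000 rows with background included. Rows of the nuclear chromosomes were ranked by deposited signal and kept down to a fixed rank, here called the top list, and the summit of each, the single base of highest signal, was placed on the gene models of the WBcel235 assembly (ce11). A row was called exonic when its summit lay in a protein-coding exon and outside every window from 500 bp upstream to 100 bp downstream of the 5′ end of a protein-coding gene. The rule gave 268 exonic peaks, 6.89% of the top list (exact Clopper-Pearson 95% interval 6.11 to 7.73%, counting error only). The 3622 other rows of the top list had 967 summits in promoter windows, 1208 in introns and 1447 outside both. The exonic peaks were chosen by pooled signal and by position, so both are given as a description.

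The embryos came from strain OP639, which carries the integrated transgene wgIs639, a ham-2::TY1::EGFP::3xFLAG fusion together with a rescuing unc-119(+) copy, in animals mutant for unc-119 (tm4063). Per the labels they were embryos of mixed stage and mixed sex, aged 3 hours and obtained by bleaching. The antibody was directed against GFP, and the chromatin had been sheared by sonication to 200 to 800 bp. There are 2 biological replicates, numbered 6 and 7, each with 1 technical replicate, and both belong to the same group, so no conditions could be compared. The material was the whole organism of 1 transgenic line, which averages all embryonic cells and cannot separate the tagged ham-2 copy from the endogenous gene. A library from an untagged strain was not analysed here.

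HAM-2 is a zinc-finger protein known for its role in the migration of the HSN motor neurons, which innervate the egg-laying muscles. Transcription factors are usually studied at promoters and enhancers. An exon can hold coding sequence or an untranslated region (UTR), and the first exon of a shorter transcript can lie deep inside the gene when that transcript starts from an internal promoter. In C. elegans many messages also receive a spliced leader in place of their original 5′ end, so annotated starts often mark the site of trans-splicing and not the start of transcription.

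The lists of the replicates differed in how many exonic rows they ranked highly, and this bears on every value below. Each replicate's own list was cut at the same rank as the pooled one, and of those rows 211 were exonic in replicate 6 (5.42%, 95% interval 4.73 to 6.18%) and 802 in replicate 7 (20.6%, 19.4 to 21.9%). The surplus in replicate 7 lay in coding sequence, with 120 coding rows in replicate 6 and 718 in replicate 7. Rows in 5′UTRs numbered 63 in replicate 6 and 64 in replicate 7. Of the 802 exonic rows of replicate 7, 120 (15%) overlapped the top rows of replicate 6, and of the 211 exonic rows of replicate 6, 107 (50.7%) overlapped the top rows of replicate 7. The sources used here do not give read depth, whose part in this difference was not tested.

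**Figure D1:**
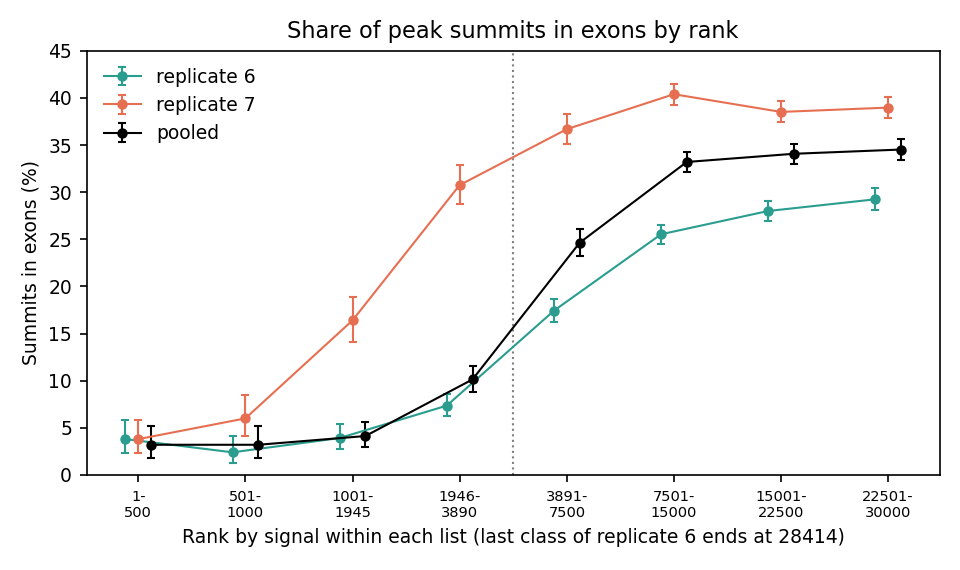
Percentage of summits in exons (y axis) by class of signal rank within each list (x axis, strongest rows on the left), for replicate 6, replicate 7 and the pooled list, with exact 95% intervals. The dotted line marks the end of the top list. The pooled share is 3.2% in the 500 strongest rows and 10.1% in the last class of the top list, and replicate 7 lies above replicate 6 from rank 501 on.

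The share of exonic summits depended on rank. The reproducible set is used here as a name for the strongest rows of the pooled list, as many as the submitters' reproducible list holds. Its rows were not matched to that list by position, so a row in it need not have passed the submitters' threshold. In the pooled list the exonic share was 3.2% in ranks 1 to 500 and again in ranks 501 to 1000. It was 4.13% from rank 1001 to the end of the reproducible set and 10.1% in the rest of the top list. Below the top list it was 24.6% in ranks 3891 to 7500 and 34.5% in the last 7500 rows. From rank 1001 to the same end the share was 3.92% in replicate 6 and 16.4% in replicate 7. The plot of exon share by rank shows both lists starting at the same 3.8% in their 500 strongest rows and separating from rank 501 on.

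The summits of 12 exonic peaks in coding sequence are shown as they stand in the genome. They display the sequence under strong signals of the class in codons outside the promoter windows of genes, and are not its 12 strongest coding peaks. The sqt-3 summit lies in a window of the same size at another transcript's start. R08C7.11, F54F2.6 and ZK112.4 are single-exon genes, with summits 121, 139 and 275 bp from the gene's 5′ end. The bases are on the plus strand of WBcel235, and the capital letter marks the summit base. The first 8 have the highest pooled signal among coding summits outside UTRs on the chromosomes from which sequence is shown here, and the next 4 are those best ranked in both replicates among the others.
srw-85, chrV:19429806-19429835: atctacgtatcgaccAtctccatctatagt
pks-1, chrX:5429542-5429571: agactcatctcgtgtCccttcgccaatgct
R08C7.11, chrIV:4454801-4454830: gtcgtgtactcctttCccgcgcgggcgtct
F54F2.6, chrIII:8800547-8800576: ccccggcggccgttgTttcgtctgcgcttc
ril-2, chrV:12596963-12596992: ctgaacgactgctttTaaacgccactgtgg
ZK112.4, chrIII:7729721-7729750: aaacagtagagacacCgagtcgagccgaga
sqt-3, chrV:12353074-12353103: gggtttctctattgcCgccgtcgcttcagt
T19B10.2, chrV:11222081-11222110: actgtcttgccagtcCatttgttggatatt
dhc-4, chrIII:10989967-10989996: caaaatgagaaaaagCagaaggagctggtt
dos-3, chrIII:835982-836011: atttgttagcatgatCgcgattatgtgggt
magi-1, chrIV:11719381-11719410: attgttagccgccaaAttgcgacgaacaca
rol-3, chrV:8235404-8235433: acgacataagggagcTggagtaggtaaatc

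These windows differ widely in base composition. Their GC content ran from 40% in srw-85, T19B10.2, dhc-4 and dos-3 to 66.7% in R08C7.11 and 70% in F54F2.6. The words of 6 bases that are counted further on do not occur in these 12 windows of 30 bases on either strand, although within 50 bp of the summit ril-2 holds the word TTAGGC and ZK112.4 holds the word GAGAGA.

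The exonic peaks were weaker than the other classes. Their deposited signal, in the units of the submitters' peak caller, ran from 73.1 to 545 with a median of 86.4. The medians of the other classes of the top list were 111 in promoter windows, 102 in introns and 109 outside both. Of the 268 exonic peaks, 71 lay in the reproducible set and 197 lay below it. At the end of the top list the exonic peaks just inside were F54F12.1 with a signal of 73.2, Y52B11A.8 with 73.1 and a peak of vab-10 with 73.1. Just outside were exonic rows of col-108 and Y57E12AL.2, both with 72.9, and of the P-glycoprotein gene pgp-3 with 72.8.

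By position in the transcript, 190 summits (70.9%, 95% interval 65.1 to 76.3%) lay in coding sequence, 56 (20.9%, 16.2 to 26.3%) in 5′UTRs, 20 (7.46%, 4.62 to 11.3%) in 3′UTRs and 2 in exons of transcripts without a coding region. A base that is coding in any transcript was counted as coding, and 10 of the coding summits are UTR in another transcript. The exon bases that the rule allowed, 26515206 in all, were 86.2% coding, 2.77% 5′UTR and 10.7% 3′UTR. The 8523 exonic rows below the top list were 90.8% coding, 3.03% 5′UTR and 5.83% 3′UTR. The 5′UTR share of the exonic peaks thus stood above both backgrounds, and the interval of the 3′UTR share holds both. In the top rows of a single replicate's list the 5′UTR share of exonic rows was 29.9% in replicate 6 and 7.98% in replicate 7, above both backgrounds in each. The 3′UTR share was 12.3% (95% interval 8.21 to 17.5%) in replicate 6 and 2.24% (1.33 to 3.52%) in replicate 7, so its place against the backgrounds depended on the list, and in replicate 7 alone it lay below both.

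The composition changed with signal. Of the 71 exonic peaks in the reproducible set, 31 (43.7%) lay in 5′UTRs and 33 (46.5%) in coding sequence. Of the 197 below it, 25 (12.7%) lay in 5′UTRs and 157 (79.7%) in coding sequence. The 3′UTR share was 8.45% in the reproducible set and 7.11% below it. Median signal was 111 for 5′UTR peaks, 89.7 for 3′UTR peaks and 82.2 for coding peaks.

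**Figure D2:**
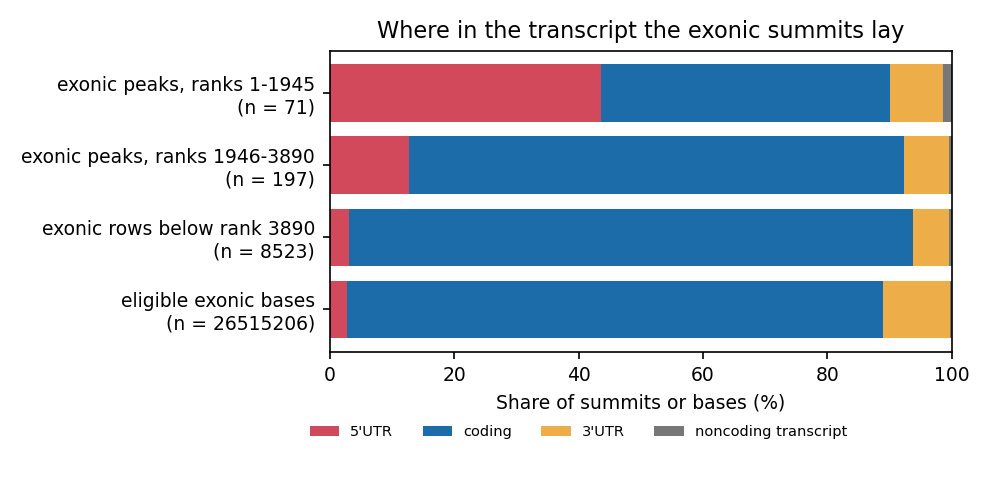
Stacked percentages of summits (upper 3 bars) or of exon bases (lowest bar) by type of exon sequence, with n beside each bar. The 5′UTR share is 43.7% in exonic peaks of the reproducible set (uppermost bar), 12.7% in the other exonic peaks, 3.03% in exonic rows below the top list and 2.77% of the eligible bases.

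The 5′UTR peaks hold the strongest signals of the class. The strongest exonic peak, rank 48 of the pooled list, lay in the 5′UTR of alg-1, which encodes an Argonaute protein of the microRNA pathway, on chromosome X from 13950650 to 13951109. Its pooled signal was 545, with 374 in replicate 6 (rank 33) and 176 in replicate 7 (rank 87). Its summit lay 1778 bp inside the gene, in the first exon of a transcript that starts downstream of the gene's outermost 5′ end. Signals were deposited without a stated scaling, so the levels of the replicates are compared here only through ranks within each list.

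Further 5′UTR peaks near the top were in egl-30, tag-273, unc-62, orai-1, sym-1 and coel-1. In egl-30, which encodes a Gq alpha subunit, a peak with signal 471 ranked 94 in replicate 6 and 55 in replicate 7. A second summit of egl-30 lay 202 bp away in the same interval with signal 255 and ranked 386 in replicate 6 and 779 in replicate 7. In tag-273 the signal was 470, with rank 64 in replicate 6 and 98 in replicate 7, and the summit lay 8497 bp from the gene's 5′ end. In unc-62, a Meis-type homeobox gene, the signal was 469, with rank 91 in replicate 6 and 66 in replicate 7, and the summit lay 10584 bp from the gene's 5′ end. These summits lay between 1086 and 10584 bp inside their genes. Those of alg-1, tag-273 and egl-30 (the stronger) lay in a window of the promoter's size, 500 bp upstream to 100 bp downstream, around a shorter transcript's start.

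In orai-1, which encodes a store-operated calcium channel, the signal was 357, with rank 155 in replicate 6 and 183 in replicate 7. In sym-1, which encodes an extracellular leucine-rich repeat protein acting in muscle attachment, it was 316, with rank 259 in replicate 6 and 181 in replicate 7. In coel-1, a gene related to tubulin cofactor E, it was 281, with rank 251 in replicate 6 and 355 in replicate 7. The summits of sym-1 and coel-1 lay 147 bp and 137 bp after the gene's 5′ end, just past the 100 bp at which the promoter window stops.

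Of the 56 5′UTR summits, 55 lay in the first exon of the host transcript, and 26 lay more than 1000 bp from the gene's 5′ end. Another 13 lay within 250 bp of it. A window of the promoter's size around the 5′ end of another annotated transcript held 40 of the 268 summits (14.9%, 95% interval 10.9 to 19.8%), against 5.06% of exonic rows below the top list and 3.95% of the eligible bases. From a single replicate's list it was 15.6% in replicate 6 and 7.36% in replicate 7. These 40 were 26 of the 5′UTR summits, 13 coding summits and 1 3′UTR summit. In the reproducible set the count was 20 of 71 (28.2%), and below it the count was 20 of 197 (10.2%). Without these 40, 228 exonic peaks remain, of which 77.6% were coding.

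Counted by exon, 89 summits (33.2%) lay in the first exon of the host transcript, 122 (45.5%) in an internal exon, 49 (18.3%) in the last exon and 8 (2.99%) in a gene with a single exon. Among the exonic rows below the top list, 9.05% were in first exons, 73% in internal exons and 17.2% in last exons. Counted over all transcripts, first exons held 36.2% of the summits and 10.3% of the eligible bases, internal exons 46.3% and 69.1%, and last exons 18.7% and 23.6%. The coding summits alone were 34 in first, 119 in internal, 29 in last and 8 in single exons. The exons that held a summit had a median length of 482.5 bp, against 370 bp for the exonic rows below the top list. Their shortest was 50 bp and their lower quartile 256 bp, whereas 253 of the 268 exonic peaks were 420 bp wide. Many peaks therefore reached beyond the exon that held the summit. Exon and type of exon sequence are given for the summit base only.

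**Figure D3:**
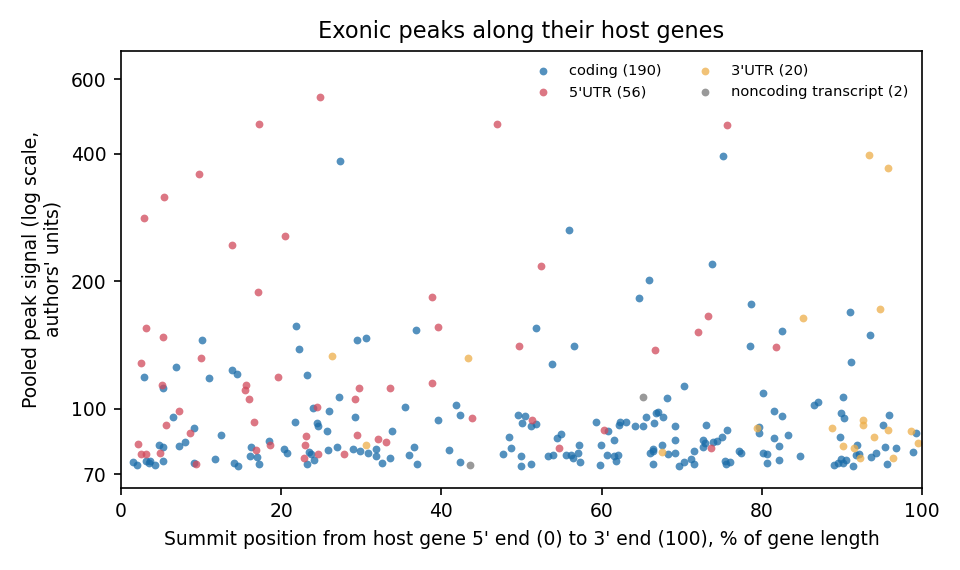
Pooled signal (y axis, log scale, the submitters' units) of the 268 exonic peaks against the position of the summit along the host gene (x axis, percent of gene length from the 5′ to the 3′ end), coloured by type of exon sequence. The 5′UTR summits have a median position of 22.9%, the coding summits of 58.3% and the 3′UTR summits of 92.5%.

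Coding peaks were spread along their genes, with a median distance of 1856 bp from the gene's 5′ end and a range from 109 to 57053 bp. The strongest lay in exon 4 of 5 of srw-85, a member of the serpentine chemoreceptor family, on chromosome V from 19429738 to 19429935. Its signal was 395 pooled, 241 in replicate 6 (rank 118) and 150 in replicate 7 (rank 127). A peak in exon 1 of 2 of Y18D10A.4 had a signal of 385, with rank 79 in replicate 6 and 279 in replicate 7. A peak in exon 22 of 30 of pks-1, which encodes a polyketide synthase, had a signal of 265, with rank 429 in replicate 6 and 213 in replicate 7. The pks-1 summit lay 15747 bp from the gene's 5′ end and 12404 bp from its 3′ end, so this is a peak deep in a gene body that both lists rank among their 500 strongest.

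At gene 3′ ends the exonic peaks were not more frequent than the exon bases would give. Within 250 bp of the 3′ end of a protein-coding gene lay 23 summits (8.58%, 95% interval 5.52 to 12.6%), against 15% of the eligible bases and 8.78% of the exonic rows below the top list. Of these, 21 lay at the end of their own host gene and 2 at the end of another gene only. They were 15 coding, 7 3′UTR and 1 5′UTR summits. The closest were asp-3, an aspartyl protease gene whose 3′UTR summit lay 7 bp from the end, and C17G1.14, whose coding summit lay 9 bp from it.

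The 20 3′UTR summits lay a median of 337.5 bp from the 3′ end of their own gene, and 19 were in the last exon of the host transcript. The strongest was in cutl-27, a cuticlin-like gene, on chromosome IV from 11883682 to 11883905, with a pooled signal of 397, 258 in replicate 6 and 136 in replicate 7 (rank 155). Next was C05D11.8 on chromosome III from 6420954 to 6421172, with 370 pooled, 237 in replicate 6 (rank 125) and 137 in replicate 7 (rank 154). A second 3′UTR summit of C05D11.8 lay 204 bp away with a signal of 91.6. Both strong 3′UTR peaks stood in the 200 strongest rows of each replicate, and their summits lay 370 bp and 275 bp from the gene's end.

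Support in the replicates was counted as an overlap of at least 1 bp with one of the top rows of each replicate's list, cut at the same rank as the top list. Because the pooled list is made from the reads of both replicates, this is a description and not independent evidence. Of the 268 exonic peaks, 145 (54.1%, 95% interval 47.9 to 60.2%) had support in replicate 6, against 83.2% of all rows of the top list. In replicate 7, 196 (73.1%, 67.4 to 78.3%) had support, against 68.6% of all rows. In both replicates 92 (34.3%, 28.7 to 40.3%) had support, against 56.0% of all rows. Support in replicate 7 alone was held by 104 (38.8%), against 12.6% of all rows, and support in replicate 6 alone by 53 (19.8%), against 27.2%. A further 19 had support in neither.

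The coding peaks carried this imbalance. Of 190 coding peaks, 79 (41.6%) had support in replicate 6, 142 (74.7%) in replicate 7 and 49 (25.8%) in both, with 93 (48.9%) in replicate 7 alone and 30 (15.8%) in replicate 6 alone. Of 56 5′UTR peaks, 47 (83.9%) had support in replicate 6, 42 (75%) in replicate 7 and 34 (60.7%) in both. Of 20 3′UTR peaks, 17 (85%) had support in replicate 6, 12 in replicate 7 and 9 (45%) in both. Promoter rows had 90.4% in replicate 6, 64.3% in replicate 7 and 57.9% in both. The 5′UTR peaks thus stood near the promoter, intron and outside rows in both counts, and the coding peaks stood apart in replicate 6.

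**Figure D4:**
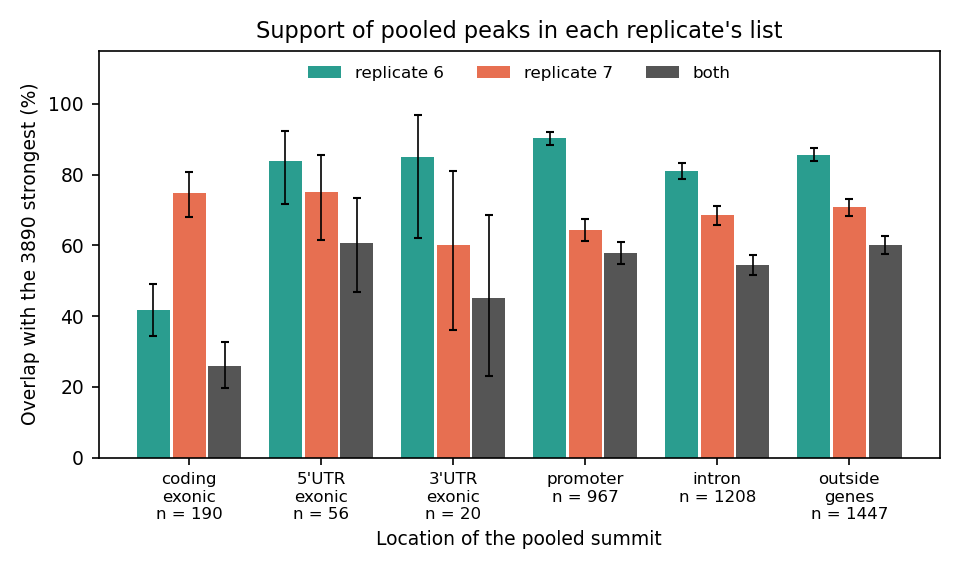
Percentage of rows of the top list that overlap the top rows of replicate 6, of replicate 7 and of both (bars, with exact 95% intervals), for exonic peaks by type of exon sequence and for promoter, intron and outside rows. Coding exonic peaks reach 41.6% in replicate 6 and 74.7% in replicate 7, and every other class shown has its higher bar in replicate 6.

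Support also followed rank. Of the 71 exonic peaks in the reproducible set, 69 had support in replicate 6, 66 in replicate 7 and 64 (90.1%) in both. Over all rows of the reproducible set 88.2% had support in both, with 85.2% of promoter, 88.6% of intron and 89.9% of outside rows. The exonic peaks of these ranks thus had support in both at about the share of any row there. Of the 33 coding peaks among them, 29 (87.9%) had support in both. Below it, 28 of 197 exonic peaks (14.2%, 95% interval 9.66 to 19.9%) had support in both, and 102 (51.8%) in replicate 7 alone. In the same ranks 23.4% of promoter rows, 23.9% of intron rows and 26.9% of outside rows had support in both, and 14.1%, 25.1% and 21.6% of them in replicate 7 alone. The weaker part of the exonic class therefore rested on replicate 7 to a larger degree than the other rows of the same ranks.

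Ranks were also compared one to one, by matching each pooled summit with the closest summit within 100 bp among the overlapping rows of a replicate's whole list, background included. A match was found for 253 exonic peaks in replicate 6, with a median rank of 3543, and for 244 in replicate 7, with a median rank of 2128. Of the 231 matched in both, 147 ranked better in replicate 7 and 84 in replicate 6. Of the 160 coding peaks matched in both, 45 ranked better in replicate 6 and the rest in replicate 7, with median ranks of 4870 in replicate 6 and 2118 in replicate 7. The 5′UTR peaks were 28 better in replicate 7 and 26 in replicate 6, and the 3′UTR peaks 4 better in replicate 7 and 12 in replicate 6. The strongest peaks lie near the diagonal of the plot of ranks, and the coding peaks lie mostly on the side of replicate 7.

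**Figure D5:**
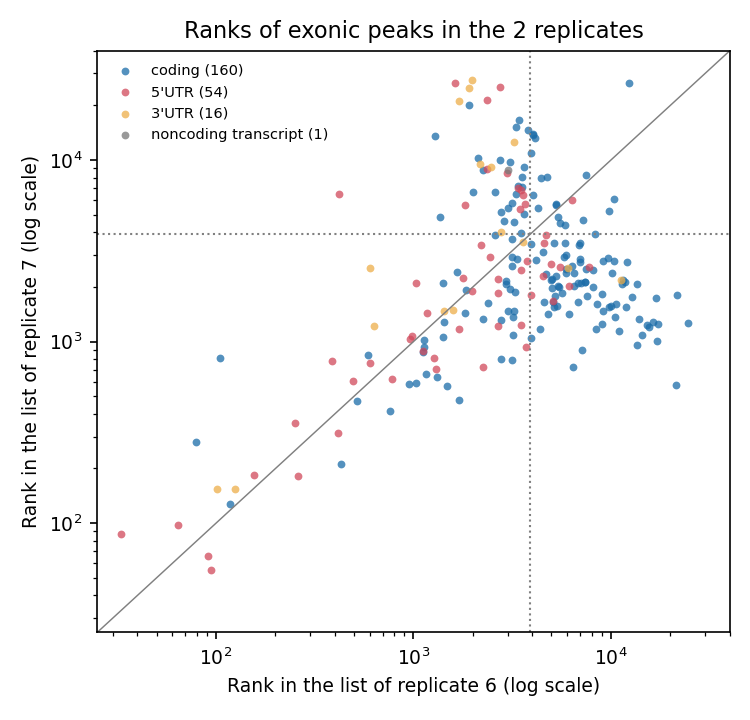
Rank in the list of replicate 7 (y axis, log scale) against rank in the list of replicate 6 (x axis, log scale) for the 231 exonic peaks matched in both lists, coloured by type of exon sequence. The solid line marks equal ranks and the dotted lines the end of the top rows. Of the 160 coding peaks 45 lie above the diagonal, with the better rank in replicate 6, and of the 54 5′UTR peaks 26.

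The 5 exonic peaks with the largest rank difference in favour of replicate 7 were all coding. Y14H12B.2 ranked 21353 in replicate 6 and 580 in replicate 7, and chil-10, a chitinase-like gene, 17252 in replicate 6 and 1250 in replicate 7. The Kelch-repeat gene kel-1 ranked 21727 in replicate 6 and 1810 in replicate 7. A peak of let-526 ranked 24630 in replicate 6 and 1266 in replicate 7, and the peak in ham-2 ranked 17054 in replicate 6 and 1012 in replicate 7. In all 5, the replicate 6 rank lies far down in the background of its list.

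Among the peaks matched in both lists, the 5 with the largest difference in favour of replicate 6 were in UTRs. The 5′UTR peaks were W03D8.2, ranked 1626 in replicate 6 and 26726 in replicate 7, and wdr-54, a WD-repeat gene, ranked 2728 in replicate 6 and 25269 in replicate 7. The 3′UTR peaks were rgef-1, which encodes a Ras guanine nucleotide exchange factor of neurons, ranked 1975 in replicate 6 and 27614 in replicate 7, nep-2, a neprilysin-type peptidase gene, ranked 1918 in replicate 6 and 24969 in replicate 7, and slc-25A46, a gene of the mitochondrial carrier family, ranked 1691 in replicate 6 and 21138 in replicate 7. These peaks stand among the top rows of replicate 6 and in the background of replicate 7.

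The exonic peak in ham-2 itself (WBGene00001821) lay on chromosome X from 4557022 to 4557441, in coding exon 2 of 6 and 2547 bp from the gene's 5′ end, within the window of a shorter transcript's start. Its pooled signal was 77.6 (rank 3450), with 22.8 in replicate 6 and 59.5 in replicate 7. Of 19 genes of HSN migration and fate 2 (10.5%) were hosts, ham-2 and mig-1, against 1.27% of all protein-coding genes. The line carries ham-2 in its transgene too, and signal of that copy cannot be told apart here from signal of the endogenous gene. The peak in mig-1, which encodes a Frizzled receptor, had a pooled signal of 78.5 and rank 6946 in replicate 6 and 2753 in replicate 7. Neither of the 2 peaks had support in replicate 6.

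The 268 summits fell in 254 protein-coding host genes, 1.27% of the 19973 in the annotation. A single exonic peak was found in 242 of them, 2 peaks in 10 genes and 3 peaks in vab-10 and let-526. A summit counted for hmg-11 also lay in an exon of the overlapping gene clec-140. In vab-10, which encodes a spectraplakin of epidermal attachments and the cytoskeleton, the peaks lay in coding exons 1, 6 and 20 of 25, with signals of 153, 73.1 and 74.1. The exon 1 peak ranked 1316 in replicate 6 and 638 in replicate 7, the exon 6 peak 12066 in replicate 6 and 2730 in replicate 7, and the exon 20 peak 5204 in replicate 6 with no match in replicate 7.

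In let-526, which encodes a subunit of the SWI/SNF chromatin remodelling complex, the peaks lay in coding exons 6, 7 and 8 of 13 with signals of 85.7, 91.0 and 74.6. The exon 7 peak had no match in replicate 6 and ranked 920 in replicate 7, and the exon 6 peak ranked 4161 in replicate 6 and 2826 in replicate 7. The peaks of let-526 all had support in replicate 7 and lacked it in replicate 6. The same held for 91 of the 157 coding peaks (58.0%) below the reproducible set. Genes with 2 exonic peaks included lin-42, a heterochronic gene related to period, with a 5′UTR peak of signal 140 and a 3′UTR peak of signal 76.5. Others were the homeodomain zinc-finger gene zfh-2, with coding peaks of 109 and 74.4, and the cuticle collagen gene col-46, with a 5′UTR peak of 189 and a coding peak of 77.6.

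Host genes were set beside 18 gene lists chosen for embryonic tissues and common gene families, with the 1.27% over all protein-coding genes as the background. No list was tested, and the shares were not adjusted for how much exon sequence each gene offers. Of 64 genes of epidermal junctions and the apical matrix, 8 (12.5%) held an exonic peak, namely sym-1, sqt-3, vab-10, nhr-23, dpy-17, dpy-14, hmr-1 and rol-6. The 10 peaks in them had a median signal of 85.2, with support in replicate 6 for 5 and in replicate 7 for 9. In sqt-3, a cuticle collagen gene, the peak in coding exon 1 of 3 had a signal of 157, with rank 1137 in replicate 6 and 930 in replicate 7. In nhr-23, a nuclear receptor gene needed for molting, a 5′UTR peak had 128, with rank 2260 in replicate 6 and 729 in replicate 7.

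Of 40 axon guidance genes 5 (12.5%) were hosts, namely dgn-1, unc-44, unc-115, unc-76 and unc-6. The dystroglycan gene dgn-1 had a signal of 106 in its last coding exon, with rank 1284 in replicate 6 and 13514 in replicate 7. The ankyrin gene unc-44 had 90.1 in coding exon 3 of 19, with rank 4531 in replicate 6 and 3126 in replicate 7. Of 46 body wall muscle genes 3 were hosts, vab-10, the myosin light chain gene mlc-3 and the myosin heavy chain gene myo-3. Of 39 chromatin regulators 2 were hosts, let-526 and cbp-1, which encodes a CBP/p300 acetyltransferase, and the 4 peaks in them all had support in replicate 7 and none in replicate 6. All but the cbp-1 peak were in let-526, and all were coding peaks below the reproducible set. Of the 157 such coding peaks, 91 (58.0%) had support in replicate 7 alone.

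Large families lay nearer to the background or below it. Nuclear receptors had 6 hosts of 269 (2.23%), with the strongest in the 5′UTR of nhr-66 at 137. The col collagens had 4 of 156 (2.56%), and the hedgehog-related genes 3 of 85 (3.53%), namely wrt-1, qua-1 and ptr-2. The peak of wrt-1 lay in the 5′UTR, with a signal of 114. Chemoreceptors had 4 of 1204 (0.332%) and F-box genes 1 of 315 (0.317%), which was fbxb-74 with a 3′UTR peak of 164.

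Against the background of 1.27%, other families had 1.2 to 2.6% of their genes as hosts, a single host each. These were rps-3 of 81 ribosomal protein genes with a signal of 78.1, hsp-90 of 62 chaperone genes with 96.8, the linker histone gene his-24 of 50 histone genes with 83.9, and ife-3, which encodes an eIF4E cap-binding protein, of 39 translation factor genes with 74.6. All 4 peaks were coding. Those of rps-3, hsp-90 and his-24 ranked 6331, 4776 and 5392 in replicate 6 and 2623, 1427 and 2029 in replicate 7, and that of ife-3 ranked 4109 in replicate 6 and 13254 in replicate 7. The germline zinc-finger gene pie-1, of 43 maternal RNA-binding genes, had a coding peak of 75.5, and ceh-6, a POU homeobox gene and 1 of 63 ceh genes, a 5′UTR peak of 78.2. The 20 tubulin and actin genes and the 54 genes of mitochondrial respiration held no exonic peak, which lists of these sizes can do at a background of 1.27%.

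Some exonic peaks lay beside short noncoding genes, as other rows of the list do. Within 250 bp of a tRNA, snoRNA, snRNA, rRNA or microRNA gene lay 16 exonic summits (5.97%, 95% interval 3.45 to 9.51%), against 9.05% of all rows of the top list, 0.598% of exonic rows below it and 0.511% of the eligible bases. The neighbours were 10 tRNA, 3 snoRNA and 3 snRNA genes. The share was thus lower than in the whole top list and higher than among exon bases. From a single replicate's list it was 8.06% in replicate 6 and 2.87% in replicate 7. In ril-2 the coding summit lay 1 bp from the snoRNA gene C14C10.8, with a signal of 177 and rank 952 in replicate 6 and 583 in replicate 7. In din-1, which encodes a transcriptional corepressor, the 5′UTR summit lay inside the snoRNA gene F07A11.15, with a signal of 151 and rank 1115 in replicate 6 and 889 in replicate 7. In rol-3, which encodes a receptor tyrosine kinase, the coding summit lay 39 bp from a tRNA gene, with a signal of 145 and rank 1156 in replicate 6 and 667 in replicate 7.

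Overlapping this group by 5 summits, 20 exonic summits had a further top-ranked summit within 500 bp, and in 12 of them the neighbour was stronger. The dhc-4 summit, in a dynein heavy chain gene, lay 206 bp from the intronic summit of rank 13, and the W03C9.1 summit lay 200 bp from the row of rank 2. An overlap with a replicate's row can at such places be an overlap with the neighbour, and the counts of support still include such overlaps. The matched ranks above were taken from the closest summit within 100 bp, which lessens this and does not remove it. In replicate 6 the dhc-4 summit was matched at 92 bp to a row of rank 105, which may belong to the neighbour.

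Across chromosomes the exonic peaks numbered 55 on I, 40 on II, 39 on III, 35 on IV, 38 on V and 61 on X. The X chromosome held 22.8% of the exonic peaks, 23.4% of the top list and 15.4% of the eligible bases. The share of a chromosome's top rows that was exonic ran from 6.22% on III to 8.32% on I, with 6.70% on X. The exonic peaks thus followed the chromosomal distribution of the whole list.

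The sequence around the summits was GC-rich relative to exons at large. Within 50 bp of the summit the median GC content was 49.5% for the exonic peaks, 44.6% for the exonic rows below the top list and 39.6% for windows centred on the eligible bases. The medians of coding summits and coding bases were 49.5% and 40.6%, those of 5′UTR summits and bases 49.5% and 35.6%, and those of 3′UTR summits and bases 44.6% and 30.7%. Top-ranked rows elsewhere had 48.5% in promoter windows and 47.5% both in introns and outside. Among coding peaks the median was 51.5% for those supported in replicate 7 alone, 47.5% for those in replicate 6 alone and 48.5% for those in both. Of the 93 coding peaks supported in replicate 7 alone, 0 lay near a short noncoding gene, which allows a share of up to 3.23%, against 5 of 30 in replicate 6 alone and 7 of 49 in both.

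Short words were counted on both strands in the same windows. The word GAGAGA was present at 37 of 268 exonic summits (13.8%, 95% interval 9.91 to 18.5%), against 20.8% of the top list, 5.57% of exonic rows below it and 5.52% of the eligible bases. It was present at 17 of 56 5′UTR summits (30.4%) and 16 of 190 coding summits (8.42%), against 7.95% of 5′UTR bases and 5.26% of coding bases. The alg-1, egl-30, orai-1, cutl-27 and Y18D10A.4 summits were among them. The word TTAGGC was present at 12 exonic summits (4.48%), against 10.6% of the top list, 1.56% of exonic rows below it and 1.19% of the eligible bases, with tag-273 the strongest.

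The word CCCGCC was present at 13 exonic summits (4.85%), against 6.68% of the top list, 1.83% of exonic rows below it and 1.18% of the eligible bases. The word CACGTG was present at 9 (3.36%), against 1.98% of the top list, 3.61% of exonic rows below it and 2.31% of the eligible bases. Of the 9, 8 were coding, and of all exonic peaks 70.9% were coding. For every word the share of exonic summits lay between that of the exonic rows below the top list and that of the whole top list. For CACGTG the order was reversed. Its share lay above the whole top list and below the exonic rows, whose share is inside its 95% interval (1.55 to 6.28%). These differences were not tested. A match is a string of letters in the window and does not mark a bound site.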

How the data were processed

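Peaks and background were called by the submitters on each replicate and on both pooled. A threshold of irreproducible discovery rate gave their reproducible list, per the deposited listing. Per the labels, positions refer to ce11. The sources used here do not name the aligner, the peak caller or the read depth. Precision from depth is therefore unknown, and the control library used for the calls was not analysed here. The signal of each peak is the value the authors' caller gave, deposited without a stated scaling, and it was used to rank rows within a list. The deposited −log10 q-value was not used for ranking.

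The top list holds the 3890 strongest nuclear rows of the pooled list, and the 1945 strongest of these are called the reproducible set. That number follows the length of the submitters' reproducible list, whose rows were not matched to the pooled rows by position. Summits (start plus offset, converted to 1-based positions) were placed on protein-coding gene models of Ensembl release 115 for WBcel235. The host transcript of a summit and its exon number come from those models. Support is an overlap of at least 1 bp with the 3890 strongest nuclear rows of a replicate, and matched ranks come from the closest overlapping summit within 100 bp. Intervals are exact Clopper-Pearson intervals at 95% from scipy 1.17.1 and, like the upper limit for a count of 0 (3 counts), cover counting error only. With a single group no statistical test was run. Python 3.11.15, numpy 2.4.6, pandas 2.3.3 and matplotlib 3.10.9 were used. The lookup of features was checked on positions drawn from the same gene models, which does not test the placement of the deposited summits.

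The members and gene lists were chosen with earlier results of these data known. Named genes are hosts of the 12 strongest peaks, of the 10 best ranked in both replicates, of the 5 largest rank differences each way, of 3 or more peaks, and of the 2 strongest peaks of each list, with the 3 peaks each side of the threshold. Genes named for a short distance to a 3′ end, a noncoding gene or another peak, and those with 2 peaks, were picked after their values were seen. Alternatives covered the number of rows, the promoter window, the position used for a peak, the support rule, the distances, the order of coding and UTR, and each replicate's list alone.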

Additional observations from a re-analysis of the deposited data

How the results depend on the processing

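No paired analysis was possible because both replicates belong to a single group. Of 73 recomputed values, 45 did not move and 28 moved, where a share moved if it left the 95% interval of its reported value and a count moved if it changed by more than 1.5 times. Using the peak midpoint gave 269 exonic peaks, but this alternative could move little. Of the 268 exonic peaks, 253 were 420 bp wide, as a rule with the summit at the midpoint. The values it left unmoved therefore say little about the position used for a peak. Over the reproducible set alone there were 71 exonic peaks in 70 host genes, with shares of 46.5% coding, 28.2% at another transcript's start, 14.1% in last exons and 9.86% near noncoding genes, and with support of 97.2% in replicate 6, 93.0% in replicate 7 and 90.1% in both. With promoter windows at every transcript's 5′ end the coding share was 77.6%, and with windows widened to 1000 bp before and 200 bp after the gene's start the share at another transcript's start was 19.9%. Support in replicate 7 was 66.0% when summits within 100 bp were required. Against only as many rows of a replicate as the reproducible set holds, support was 26.9% in replicate 6, 44% in replicate 7 and 19.4% in both, and against any row, background included, it was 99.3% in each replicate and 98.5% in both. The share near gene 3′ ends was 4.48% within 100 bp and 23.1% within 500 bp.

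From the lists of replicate 7 alone and of replicate 6 alone, the number of exonic peaks ranged from 211 to 802, host genes from 199 to 742, the coding share from 56.9 to 89.5%, the 5′UTR share from 7.98 to 29.9%, the 3′UTR share from 2.24 to 12.3%, the share at another transcript's start from 7.36 to 15.6%, that in last exons from 17 to 20.4%, that near gene 3′ ends from 6.23 to 11.4% and that near noncoding genes from 2.87 to 8.06%. The list of replicate 7 gave the 802 exonic peaks and the higher coding share. The cause was not tested. Counts of peaks limit the precision of the 3′UTR shares, which rest on 20 peaks.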
